A study of Homo sapiens with 16 samples.

Results

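Gene expression in U937 cells 12 h after induction of AML1-ETO was compared with that of control cells at 0 h, on 4 of the 16 arrays of the series. All probe sets outside the manufacturer's control rows were members, 12559 in number, and 7806 of them were tested. U937 is a human monocytic leukaemia cell line, and these cells carried an AML-ETO construct driven by a tetracycline-controlled promoter, in the control cells as well as in the induced ones. The tested cells were the class labelled AML1-ETO Induced at 12 h, with 2 arrays, and the others were the class labelled Control at 0 h, with 2 arrays. All cells grew in RPMI medium with fetal calf serum and antibiotics. The remaining 12 arrays held controls of 24, 48 and 72 h and induced cells of 24, 48 and 72 h, 2 of each. The labels also name controls of 12 h, which were not analysed here. Induction and 12 h of culture therefore differ together between the groups, and their parts cannot be told apart. Nothing in the labels tells whether the line was 1 clone, or whether the replicates were grown apart. If they were not, the p-values reflect technical spread alone.

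AML1-ETO is the fusion protein of a chromosomal translocation of acute myeloid leukaemia. In it the Runt domain of RUNX1, which binds DNA, is fused to nearly all of RUNX1T1, the ETO protein, which recruits corepressors with histone deacetylase activity. In myeloid cells the fusion is known for holding back granulocytic differentiation. A tetracycline-controlled promoter is switched by tetracycline or a derivative of it, so that the same line serves as induced and as control cells.

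The values were array intensities, 1 per probe set and array, from U95Av2 oligonucleotide arrays hybridised with biotin-labelled cRNA made from total RNA. The 4 arrays had median intensities of 221 to 339, within the 221 to 340.1 of all 16 arrays, and 23.6% to 33.8% of their values were below 0. Across tested probe sets the replicates correlated at r = 0.939 in induced 12 h cells and at r = 0.912 in control 0 h cells, a description in which probe sets are not independent. Differences are on the log2 scale of intensities, after values under a floor of 136.9 were raised to it, and errors of log2 differences are standard errors of the limma fit. Calls were made at adjusted p-values below 0.05. Fold changes are ratios of the geometric means of floored intensities. Where both arrays of the lower group lay at the floor, the fold change is a lower bound and is written "at least". Where 1 of them did, as for RRP12, RAB5C, P2RX7 and ORC3, the fold change holds for the floored values alone and is no bound. In bulk RNA, fewer expressing cells and less RNA per cell cannot be told apart.

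The labelled cell type was checked with 14 myeloid genes. Of these, 12 read above the floor on all 4 arrays, among them the granule proteases ELANE, CTSG, PRTN3 and AZU1, the integrin ITGB2 and the transcription factor SPI1. CD68, a macrophage lysosomal protein, was under the floor on all 4, and MPO, the granule peroxidase, on the 2 induced 12 h arrays and 1 control 0 h array. Of 50 genes that mark lymphoid, erythroid, megakaryocytic, epithelial or fibroblast cells, 11 read above the floor on all 4 arrays and 18 were under it on all 4. None of the 26 tested genes among these markers was called. Summed over tested genes, the lymphoid markers read 6816 to 6987 on the induced 12 h arrays, against 6581 to 6792 on the control 0 h arrays. The summed erythroid and megakaryocyte markers read 3463 to 4251 on induced 12 h arrays and 4767 to 5622 on control 0 h arrays, and the epithelial and fibroblast markers 5819 to 7436 on induced 12 h arrays and 6210.0 to 6561 on control 0 h arrays.

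RUNX1T1, most of which the fusion contains, had no measurable level at 12 h. Its tested probe set, 1 of 4, read -116 and 86.1 on the induced 12 h arrays, against -220.0 and -223 on the control 0 h arrays, all under the floor. The other 3 probe sets were also under the floor on these 4 arrays. At later times the tested probe set was above its same-time controls, with a log2 difference of 5.42 at 48 h (adjusted p = 0.000389) and of 6.10 at 72 h (adjusted p = 6.92e-05). RUNX1 had no probe set assigned to it alone and is given no value. At 12 h the transcript gave no value above the floor on any probe set, so the label of induction could be checked with it only at 48 and 72 h.

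Between induced 12 h and control 0 h cells, 255 of 7806 probe sets were called, which is 3.27% of those tested. Of these, 90 (1.15% of tested) rose and 165 (2.11%) fell. The called rises had a median log2 difference of 1.23 and the called falls of -1.20, and 58 rises and 106 falls were at least 2-fold. In all 255 the 2 induced 12 h arrays lay on one side of the 2 control 0 h arrays, as they did in 45.6% of all tested probe sets. At an unadjusted p under 0.05 there were 1614 probe sets. The count was lower whichever array of these groups was left out. Such a fit leaves a lone array in its group, which widens the standard error. The lower counts alone therefore do not show dependence on single arrays.

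The split of the calls into rises and falls depended on the scaling of the arrays. The median log2 difference of all tested probe sets was -0.15 as deposited, -0.01 after quantile normalization and 0.10 after centring each array on its median. Rises made up 35.3% of calls as deposited, 56.8% (168 of 296) after quantile normalization and 73.2% (216 of 295) after median centring. All 90 rises were still called after quantile normalization and 87 after median centring, against 116 and 79 of the 165 falls. The names given below are those of the deposited scale.

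**Figure D1:**
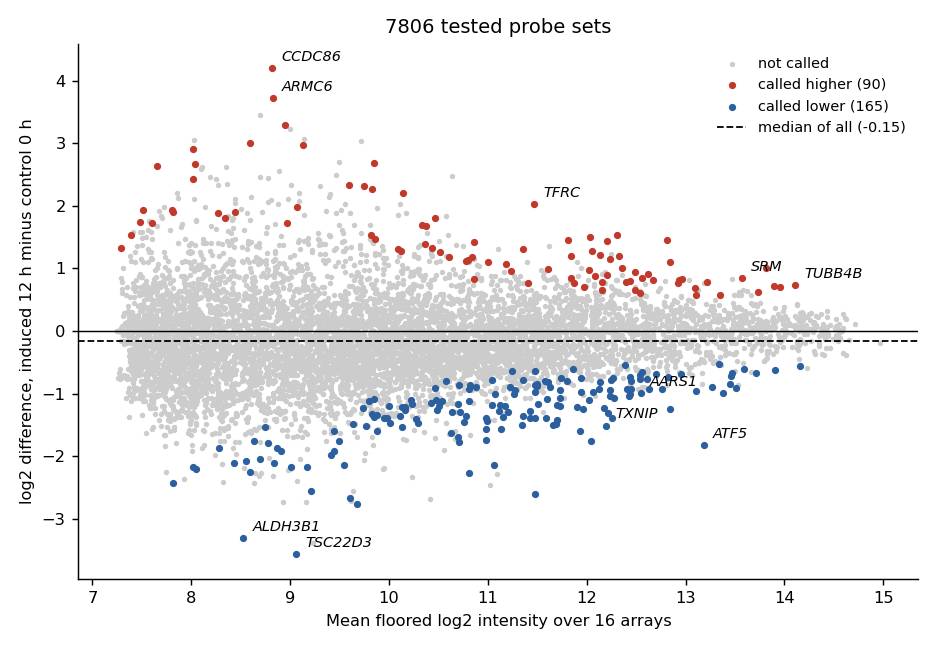
Log2 difference of induced 12 h minus control 0 h (vertical axis) against the mean floored log2 intensity over 16 arrays (horizontal axis) for 7806 tested probe sets, 1 point each. The 90 called rises (red) and 165 called falls (blue) lie on both sides of the dashed median of -0.15, and called differences shrink as intensity grows.

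The largest rises included genes of the nucleus and of RNA processing. CCDC86, a coiled-coil protein of the nucleus, read 2328 and 2705 on the induced 12 h arrays, against -139.7 and 21.8 on the control 0 h arrays. The control values were under the floor, and the 12 h values were at least 18.3-fold higher (log2 4.20 ± 0.33, adjusted p = 8.07e-05). RRP12, whose yeast counterpart takes part in the export of ribosomal subunits, read 1162 and 2823 in induced 12 h cells and 248 and -302 in control 0 h cells. Its groups did not overlap, and the rise was 9.84-fold (log2 3.30 ± 0.58, adjusted p = 0.0103). ELAC2, the endonuclease that trims the 3′ ends of precursor tRNAs, read 2021 and 1747 in induced 12 h cells, against 322 and 177 in control 0 h cells, and was 7.88-fold higher (adjusted p = 0.0139).

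Further large rises included genes of membranes and vesicle traffic. TFRC, the transferrin receptor that takes up iron, read 6199 and 13106 in induced 12 h cells, against 2355 and 2089 in control 0 h cells. Both induced arrays were above both controls, though the induced arrays differed from each other by more than the controls, and the rise was 4.06-fold (log2 2.02 ± 0.30, adjusted p = 0.00438). RAB5C, a small GTPase of early endosomes, read 1116 and 2745 in induced 12 h cells, against 536 and -14.9 in control 0 h cells, with replicate 1 of the control above the floor and replicate 2 under it (6.46-fold higher, adjusted p = 0.0233). CLTB, a clathrin light chain, read 823 and 1255 in induced 12 h cells, against 341 and 194 in control 0 h cells, and was 3.95-fold higher (adjusted p = 0.0277). Its probe set carries the suffix _f_at, which marks probes shared between related sequences. SEC16A, which organises the exit sites of the endoplasmic reticulum, was at least 6.25-fold higher, with 796 and 919 in induced 12 h cells and -289 and -2418 in control 0 h cells (adjusted p = 0.0353). PIP5K1C, a phosphoinositide kinase, was 5-fold higher (adjusted p = 0.045).

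The remaining large rises were spread over metabolism and signalling. PEMT, which methylates phosphatidylethanolamine to phosphatidylcholine, read 1075 and 985 in induced 12 h cells, against 67.1 and -25.8 in control 0 h cells. It was at least 7.52-fold higher (log2 2.91 ± 0.44, adjusted p = 0.0044). TNIP1, which binds the NF-kB inhibitor A20, read 849 and 888 in induced 12 h cells, against 126 and -100.3 in control 0 h cells, and was at least 6.34-fold higher (adjusted p = 0.0061). SLC37A4, a sugar phosphate transporter of the endoplasmic reticulum, was 4.61-fold higher, PMPCA, a subunit of the mitochondrial processing peptidase, 5.04-fold, and NAGPA, which finishes the sorting signal of lysosomal enzymes, at least 3.84-fold. Their adjusted p were 0.0179, 0.0258 and 0.0241. CAPN15, a member of the calpain family, read 706 and 1712 in induced 12 h cells, against -76.9 and -172 in control 0 h cells and was at least 8.03-fold higher (adjusted p = 0.0108). ARMC6, an armadillo-repeat protein, had 1666 and 1944 in induced 12 h cells, against -587 and -349 in control 0 h cells, and was at least 13.1-fold higher (adjusted p = 0.00438).

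The largest fall was of TSC22D3, the glucocorticoid-induced leucine zipper protein. It read 129.8 and 64.3 on the induced 12 h arrays, both under the floor, against 1526 and 1725 on the control 0 h arrays. The level was at least 11.9-fold lower (log2 -3.57 ± 0.45, adjusted p = 0.00191). DDIT4, an inhibitor of mTORC1, read 1485 and 1189.8 in induced 12 h cells, against 8389 and 4865 in control 0 h cells, and fell 4.81-fold (log2 -2.26 ± 0.41, adjusted p = 0.0115). BNIP3L, a receptor for the removal of mitochondria, read 872 and 821 in induced 12 h cells, against 4049 and 3425 in control 0 h cells, with a narrow spread in each group (4.4-fold lower, adjusted p = 0.00102). CCNG2, an unconventional cyclin of resting cells, read 110.3 and 107 in induced 12 h cells, against 513 and 680.0 in control 0 h cells, with the induced arrays under the floor (at least 4.31-fold lower, adjusted p = 0.0417). DDIT3, the stress transcription factor also called CHOP, read -667 and -447 in induced 12 h cells, against 967 and 565 in control 0 h cells, and was at least 5.4-fold lower (adjusted p = 0.00471).

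Receptors, channels and enzymes were among the other large falls. CHRNB1, a subunit of the muscle acetylcholine receptor, read 632 and 738 in induced 12 h cells, against 3136 and 5476 in control 0 h cells. It fell 6.07-fold (log2 -2.60 ± 0.34, adjusted p = 0.00266). P2RX7, an ATP-gated ion channel of myeloid cells, read 65.8 and 529.7 in induced 12 h cells, against 2060.0 and 1626 in control 0 h cells, with 1 induced array under the floor (6.8-fold lower, adjusted p = 0.0139). AVPR1B, a vasopressin receptor, read 146 and 256 in induced 12 h cells, against 929.6 and 1397 in control 0 h cells and was 5.89-fold lower (adjusted p = 0.00526). ALDH3B1, an aldehyde dehydrogenase, read 142 and 205 in induced 12 h cells, against 1558 and 1811 in control 0 h cells, and fell 9.85-fold (log2 -3.30 ± 0.38, adjusted p = 0.00102). EXT1, which polymerises heparan sulfate, was at least 4.61-fold lower (adjusted p = 0.0163).

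The last of the 15 falls included proteins of the centrosome and of replication origins. CEP57, a centrosomal protein, read 280.4 and 235 in induced 12 h cells, against 1348 and 1966 in control 0 h cells, and fell 6.35-fold (log2 -2.67 ± 0.31, adjusted p = 0.00102). ORC3, a subunit of the origin recognition complex, read 126 and 139 in induced 12 h cells, against 545 and 703 in control 0 h cells and was 4.49-fold lower (adjusted p = 0.0163). TRAF3IP3, which binds the signalling adaptor TRAF3, was 4.39-fold lower on its brighter probe set (adjusted p = 0.00526) and 2.91-fold lower on its dimmer (adjusted p = 0.0461). TMEM187 and IQCK were 4.76-fold and 4.52-fold lower, with adjusted p of 0.0266 and 0.0327.

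Many of these 30 calls were lost when 1 array was left out, which leaves 1 array in its group and widens the standard error. The losses alone therefore do not show dependence on 1 array. Calls of EXT1, PMPCA and SEC16A were lost while their log2 differences stayed at -2.21 to -2.20, 2.27 to 2.40 and 2.54 to 2.75. When 1 of the 4 arrays was left out, 5 of the 15 rises (CCDC86, ARMC6, PEMT, TNIP1 and TFRC) and 7 of the 15 falls (TSC22D3, ALDH3B1, CEP57, CHRNB1, DDIT3, BNIP3L and TRAF3IP3) were called each time. The other 10 rises and 8 falls missed the threshold in at least 1 of the 4 settings. Their highest adjusted p lay between 0.0504 for AVPR1B, without replicate 2 of control 0 h, and 0.238 for PIP5K1C. No direction changed. The log2 difference of TFRC lay between 1.48 and 2.56, and that of CCDC86 between 4.09 and 4.30. For 6 of the 30 genes 1 array moved the fold change by over 1.5 times. The log2 difference of RAB5C was 3.68 without replicate 1 and 1.71 without replicate 2 of control 0 h, and 3.34 without replicate 1 and 2.04 without replicate 2 of induced 12 h. Without replicate 1 or 2 of control 0 h it was 3.12 or 1.52 for PIP5K1C, and 3.09 or 1.33 for SLC37A4. Without replicate 1 or 2 of induced 12 h it was 3.64 or 2.37 for CAPN15, 3.94 or 2.66 for RRP12, and -1.79 or -3.74 for P2RX7.

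**Figure D2:**
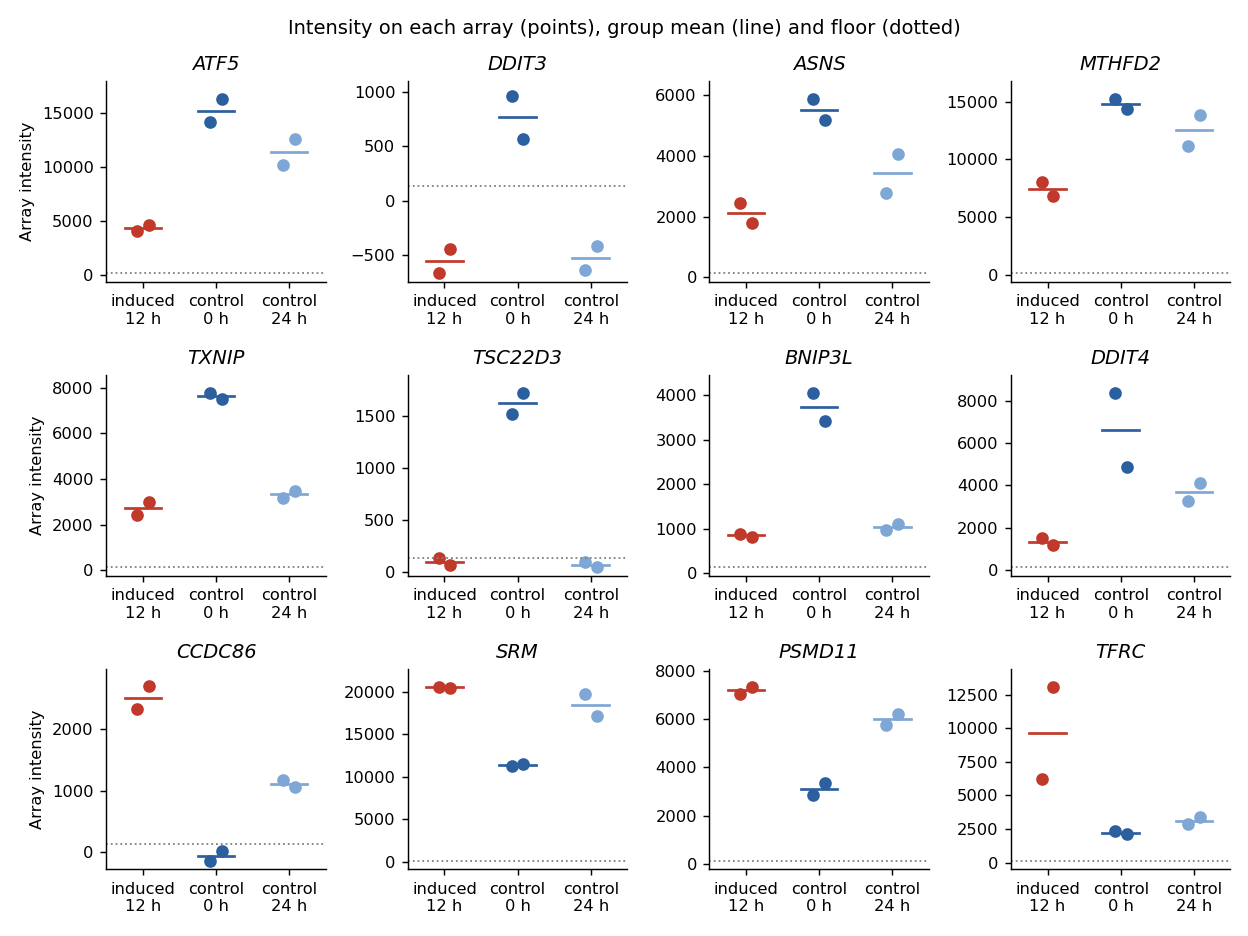
Array intensity (vertical axis) of 12 genes on each array of induced 12 h, control 0 h and control 24 h cells, with group means as lines and the floor of 136.9 dotted. The induced 12 h points lie apart from the control 0 h points in every panel, and in DDIT3, TSC22D3 and BNIP3L the control 24 h points lie close to the induced ones.

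Genes of the amino acid response formed the group with the most falls. When amino acids run short, uncharged tRNA activates the kinase GCN2 and the transcription factor ATF4 then raises amino acid synthesis, uptake and tRNA charging genes. Of 33 tested genes of this list, 10 fell and 1 rose, and its median log2 difference was -0.61. Over all 5596 tested genes the median was -0.16, and 3.56% were called, 1.22% as rises and 2.34% as falls. The list's median was -0.56 after quantile normalization and -0.36 after median centring. Of its 11 calls, 11 were kept with quantile normalization, 6 with median centring, and 4 to 9 when 1 array was left out (4 without either control 0 h array).

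ATF5, a relative of ATF4 that the same pathway controls, read 4072 and 4558 in induced 12 h cells, against 14134 and 16306 in control 0 h cells. The groups lay far apart relative to their spread, and the fall was 3.52-fold (log2 -1.82 ± 0.19, adjusted p = 0.000808). ASNS, asparagine synthetase, read 2457 and 1805 in induced 12 h cells, against 5872 and 5178 in control 0 h cells, and fell 2.62-fold (adjusted p = 0.0108). MTHFD2, an enzyme of mitochondrial folate metabolism, read 8069.5 and 6859 in induced 12 h cells, against 15250.2 and 14369.9 in control 0 h cells, and fell 1.99-fold (adjusted p = 0.00526). ATF4 itself read 10693 and 7258 in induced 12 h cells, against 14122 and 13813 in control 0 h cells and was 1.59-fold lower (adjusted p = 0.045), with a wider spread among the induced arrays. PHGDH, the first enzyme of serine synthesis, was 1.52-fold lower (adjusted p = 0.0486).

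Aminoacyl-tRNA synthetases, which load tRNAs with their amino acids, changed in both directions. AARS1, for alanine, read 6200.2 and 6051 in induced 12 h cells, against 12829 and 11569 in control 0 h cells, and fell 1.99-fold (adjusted p = 0.00803). CARS1, for cysteine, fell 2.36-fold, IARS1, for isoleucine, 1.7-fold, and SARS1, for serine, 1.69-fold, with adjusted p of 0.0158, 0.0409 and 0.026. VARS1, for valine, went the other way, with 12221 and 14552 in induced 12 h cells, against 7999 and 7643 in control 0 h cells (1.71-fold higher, adjusted p = 0.00803).

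ATF4 binds with C/EBP partners to composite sites, for which the letters TGATGNAA were searched on both strands of the 250 bases before each gene's RefSeq start. They occur in 3 of the 10 list members called lower (30.0%), in 4 of 117 genes called lower (3.42%), which include these 3, and in 1.74% of 4590 tested genes with a promoter entry. The list was made of genes known from the ATF4 pathway, so its share is no independent evidence. The 3 promoters, of ASNS, AARS1 and IARS1, are shown because they carry these letters in genes that fell. They come from RefSeq on GRCh38.p14, at chr7:97872409-97872658, chr16:70289507-70289756 and chr9:92293698-92293947. All 3 are given 5′ to 3′ on the minus strand, which is the genes' own, with the match in capitals. In ASNS it reads forward and starts 68 bases before the start site. In AARS1 and IARS1 it is on the opposite strand, 187 and 13 bases before.
ASNS: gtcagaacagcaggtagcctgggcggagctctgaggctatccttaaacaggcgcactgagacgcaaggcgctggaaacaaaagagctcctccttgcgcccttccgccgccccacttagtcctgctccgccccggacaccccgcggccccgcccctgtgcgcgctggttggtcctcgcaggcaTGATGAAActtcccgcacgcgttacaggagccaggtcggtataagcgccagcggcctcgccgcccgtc
AARS1: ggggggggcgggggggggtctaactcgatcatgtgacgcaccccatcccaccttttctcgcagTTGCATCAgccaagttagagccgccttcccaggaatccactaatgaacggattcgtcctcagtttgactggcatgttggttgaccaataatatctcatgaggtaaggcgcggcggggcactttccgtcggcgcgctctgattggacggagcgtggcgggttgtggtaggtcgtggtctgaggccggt
IARS1: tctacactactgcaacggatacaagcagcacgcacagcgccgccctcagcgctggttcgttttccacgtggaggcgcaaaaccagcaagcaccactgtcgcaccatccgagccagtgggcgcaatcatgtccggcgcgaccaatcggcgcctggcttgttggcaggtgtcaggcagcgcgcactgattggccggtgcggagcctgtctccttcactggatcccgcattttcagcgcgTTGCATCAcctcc

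Of 23 tested genes that accompany growth arrest, many of them targets of FOXO factors, 6 fell and none rose. FOXO factors are active when growth factor signalling through AKT is low. The 6 were TSC22D3, DDIT4, BNIP3L and CCNG2, described above, and TXNIP and BTG1, and 3 of the others had a positive log2 difference. TXNIP, the thioredoxin-interacting protein that limits glucose uptake, read 2433 and 2974 in induced 12 h cells, against 7786 and 7517 in control 0 h cells. It fell 2.84-fold (log2 -1.51 ± 0.21, adjusted p = 0.0038), with little spread among either pair. BTG1, an antiproliferative cofactor of mRNA deadenylation, read 1336 and 1332 in induced 12 h cells, against 3985 and 3059 in control 0 h cells, and fell 2.62-fold (adjusted p = 0.0217). The list's median was -0.61, and -0.37 after quantile normalization. When 1 array was left out, 3 or 4 of the 6 calls remained, with 3 left without replicate 1 of control 0 h or replicate 2 of induced 12 h.

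Ribosome biogenesis genes and the MYC network were mostly above 0, and few passed the test. MYC is a transcription factor that drives growth and the making of ribosomes. Its own log2 difference, on the probe set used for the list, was 0.51, and it was not called (adjusted p = 0.359). Of 22 tested genes, 20 had a positive log2 difference, with a median of 0.47, but of them only NOP2 and NOP16 passed the test. After quantile normalization 4 of the 22 were called higher and after median centring 5. NOP16, a nucleolar protein, read 2789 and 2312 in induced 12 h cells, against 979 and 865 in control 0 h cells, and was 2.76-fold higher (adjusted p = 0.0347). NOP2, a methyltransferase of ribosomal RNA, read 2764 and 4254 in induced 12 h cells, against 1875 and 1006 in control 0 h cells, and was 2.5-fold higher (adjusted p = 0.0495). Both calls were lost without replicate 2 of control 0 h and without either induced array. The 45 tested cytosolic ribosomal protein genes had a median of 0.06, and none was called. Of 31 translation factors, EIF3B (1.61-fold, adjusted p = 0.0108) and ETF1 (1.58-fold, adjusted p = 0.0233) rose, and neither call was kept without replicate 2 of control 0 h or of induced 12 h.

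SRM, spermidine synthase, was among the brightest rises. It read 20633 and 20497 in induced 12 h cells, against 11301 and 11550.5 in control 0 h cells, and was 1.8-fold higher (log2 0.85 ± 0.12, adjusted p = 0.00355). SAT1, which breaks polyamines down, fell on both probe sets, with 2243 and 2165 in induced 12 h cells, against 5496 and 5422 in control 0 h cells on the brighter (2.48-fold lower, adjusted p = 0.00333). On the dimmer the fall was 2.77-fold (adjusted p = 0.00511). SRM and SAT1 moved in opposite directions. They belong to a list of 20 tested polyamine and iron genes that was mixed, with 11 positive and 9 negative log2 differences and a median of 0.14.

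MYC binds the E-box letters CACGTG, which occur in the 250 bases before the start of 9 of 67 genes called higher (13.4%), of 11 of 117 genes called lower (9.4%) and of 8.87% of tested genes. They are in neither of the promoters of NOP2 and NOP16, and in 2 of the 10 amino acid list members called lower, among them IARS1, whose promoter is printed above. The letters read the same on both strands. The promoters of CCDC86, the largest rise, and of SRM hold them and are shown for that reason, with the E-box in capitals. Picked from these 9 genes, they are no evidence that MYC acted on either. They come from RefSeq on GRCh38.p14, CCDC86 at chr11:60841863-60842112 on the plus strand and SRM at chr1:11060019-11060268 on the minus strand, 5′ to 3′. The E-box starts 25 bases before the start of CCDC86 and 199 before that of SRM. The letters TGTGGT, of the site that RUNX factors bind, were found on either strand in 5.97% of genes called higher (4 of 67), 5.13% of genes called lower (6 of 117) and 7.95% of tested genes.
CCDC86: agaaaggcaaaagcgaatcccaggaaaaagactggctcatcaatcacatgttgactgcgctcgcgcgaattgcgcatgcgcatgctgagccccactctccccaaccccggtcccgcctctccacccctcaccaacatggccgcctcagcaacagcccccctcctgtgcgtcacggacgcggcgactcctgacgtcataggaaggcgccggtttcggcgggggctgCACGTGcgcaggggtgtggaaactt
SRM: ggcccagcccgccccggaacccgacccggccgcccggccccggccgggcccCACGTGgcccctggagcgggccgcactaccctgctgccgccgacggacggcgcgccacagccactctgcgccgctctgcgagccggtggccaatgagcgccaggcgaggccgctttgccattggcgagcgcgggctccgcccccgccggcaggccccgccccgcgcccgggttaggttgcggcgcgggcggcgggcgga

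All calls among chaperones and proteasome subunits were rises. Of all tested genes 3.56% were called, 1.22% as rises. Heat shock chaperones fold proteins in the cytosol, and the proteasome degrades those marked by ubiquitin. Of 26 tested chaperone genes, 5 (19.2%) rose and none fell, with a median of 0.31. DNAJA1, a partner of HSP70, read 6316 and 7947 in induced 12 h cells, against 3628 and 1878 in control 0 h cells, on its brighter probe set (2.71-fold higher, adjusted p = 0.00803). FKBP4, an HSP90 cochaperone, read 9912 and 12162 in induced 12 h cells, against 6300.0 and 6059.6 in control 0 h cells, and was 1.78-fold higher (adjusted p = 0.00742). STIP1, which links HSP70 and HSP90, rose 2.22-fold, and CCT3, a subunit of the chaperonin TRiC, 1.48-fold, with adjusted p of 0.0368 and 0.0417. HSPA8, the constitutive HSP70, was at least 2.51-fold higher on a dim probe set (adjusted p = 0.0425) that read 388 and 305 in induced 12 h cells and -52.9 and -61.9 in control 0 h cells. Between 1 and 2 of the 5 calls remained when 1 array was left out, with 1 left without replicate 2 of either group.

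Of 32 tested proteasome genes, 3 (9.38%) rose and none fell, with a median of 0.24. These 3 calls are too few to be read as a result about the list. PSMD11, of the regulatory particle's lid, read 7025 and 7339.7 in induced 12 h cells, against 2862 and 3364 in control 0 h cells, and was 2.31-fold higher (log2 1.21 ± 0.14, adjusted p = 0.00102). PSMD1, its scaffold subunit, rose 1.8-fold and PSMC4, an ATPase subunit, 2.62-fold, with adjusted p of 0.00766 and 0.0328. After quantile normalization 5 of the 32 were called higher and after median centring 7. Without replicate 2 of control 0 h, 1 of the 3 calls remained.

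Genes of the cholesterol and fatty acid lists fell where they passed the test. SREBF2, the transcription factor that controls cholesterol synthesis, read 3365 and 3119 in induced 12 h cells, against 6761 and 6591 in control 0 h cells, and fell 2.06-fold (adjusted p = 0.00526). DHCR7, a late enzyme of cholesterol synthesis, fell 1.61-fold, and SREBF1, a relative of SREBF2 that acts on fatty acid synthesis, 1.9-fold, with adjusted p of 0.0173 and 0.0487. These were 3 of 17 tested cholesterol genes, and only 1 was kept in each setting that left out an array. Of 20 tested fatty acid genes, ACADM (1.68-fold lower, adjusted p = 0.0371) and DECR1 (2.13-fold lower, adjusted p = 0.0395), both of fatty acid oxidation, fell. Neither call was kept in any setting that left out 1 array or with median centring. Of 26 genes of glycolysis and hypoxia, 2 fell, the glucose transporter SLC2A1 (1.89-fold, adjusted p = 0.0365) and the growth factor VEGFA. VEGFA read 1764 and 2023 in induced 12 h cells, against 5617 and 5128 in control 0 h cells, on its brighter probe set (2.84-fold lower, adjusted p = 0.0108), and fell 2.27-fold on the dimmer (adjusted p = 0.0245). Of the 2 glycolysis and hypoxia calls, 1 was kept without replicate 2 of induced 12 h and none when another array was left out.

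Genes that AML1-ETO has been reported to alter in myeloid cells were mostly not called, and of all tested genes only 3.56% were. Counts this small are no result about these genes. Of 19 tested genes reported lowered, ATM, a kinase of the DNA damage response, fell and LYZ, lysozyme, rose. ATM read 1399 and 999.6 in induced 12 h cells, against 4620.1 and 3394 in control 0 h cells, on its brighter probe set (3.35-fold lower, adjusted p = 0.0329). LYZ read 9772 and 4176 in induced 12 h cells, against 2302 and 2092 in control 0 h cells (2.91-fold higher, adjusted p = 0.0486), and its induced arrays lay far apart. Of these 2 calls, only that of LYZ was kept without replicate 2 of induced 12 h, and neither was kept when another array was left out. After median centring LYZ was not called. None of 18 tested genes reported raised was called. The smallest p among them were those of JUP, plakoglobin, with a log2 difference of -1.15 (adjusted p = 0.0567), and JAG1, a Notch ligand, with -1.60 (adjusted p = 0.0626). None of the 23 tested myeloid transcription factors was called, and CEBPA, the granulocytic factor that the cited induction protocol concerns, had a log2 difference of -0.31 (adjusted p = 0.461). TCF12, an E protein known to bind the fusion, fell 2.61-fold (adjusted p = 0.0162), a call kept only without replicate 2 of induced 12 h when arrays were left out in turn.

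Cell cycle, histone, p53, apoptosis and interferon lists held few or no calls. Of all tested genes 3.56% were called, so counts this small are no result about these lists. Of 46 tested replication genes only ORC3 fell, and of 43 mitotic genes, 22 G1 cyclin and inhibitor genes and 12 histone genes none was called. None was called among 11 p53 targets, 24 apoptosis regulators, 32 interferon response genes or 22 NF-kB and inflammatory genes. The lowest and the highest list medians among these were -0.41 for p53 targets and 0.05 for mitotic genes.

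The remaining lists had 1 to 3 calls each, too few to be read as results about a list. Of all tested genes 3.56% were called. The share was near or below that for oxidative phosphorylation (1.89% of 53), splicing (2% of 50) and cytokine receptor genes (3.57% of 28). In the other lists of this paragraph it ran from 4.17% of 24 pentose phosphate and nucleotide genes to 11.1% of 9 MAP kinase feedback genes. When arrays were left out in turn, 1 to 3 of the 3 cytoskeletal calls and 1 or 2 of the 3 lysosomal calls were kept, and every other call in this paragraph was lost in at least 1 setting. Among cytoskeletal genes, TUBB4A (2.14-fold, adjusted p = 0.00438) and TUBB4B rose and TUBA1A fell 3.37-fold (adjusted p = 0.00803). TUBB4B was 1.66-fold higher on its brighter probe set (adjusted p = 0.0108) and 1.64-fold on its dimmer (adjusted p = 0.00994). Tubulin genes are near copies of each other, so which member the tubulin probes measured is uncertain. Of lysosomal genes, CTSA, a carboxypeptidase, rose 2.68-fold (adjusted p = 0.00438), while NPC2, a cholesterol carrier, fell 2.04-fold (adjusted p = 0.011) and TPP1, a peptidase, 2.44-fold (adjusted p = 0.0189). Rises were also called for MT1X, a metallothionein (1.76-fold), CTPS1, which makes CTP (2.26-fold), and SF3A3, a splicing factor (1.63-fold), with adjusted p of 0.0261 to 0.0371. Falls were called for HERPUD1 of the unfolded protein response (2.51-fold), DUSP6, a phosphatase of ERK (2.14-fold), HLA-E (3.1-fold), JAK1 (1.74-fold), ITGB1 (1.9-fold), the tetraspanin CD37 (1.65-fold) and UQCRC2 of the respiratory chain (1.74-fold), with adjusted p of 0.0113 to 0.0486.

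After quantile normalization the medians of the amino acid, growth arrest and cholesterol lists were -0.56, -0.37 and -0.25. Those of the ribosome biogenesis, chaperone and proteasome lists were 0.49, 0.34 and 0.25. Median centring raises every log2 difference by the same amount, with the median of all tested genes going from -0.16 to 0.09. It could therefore not turn a positive list median negative, and is no check of the signs of the ribosome biogenesis, chaperone and proteasome lists. The amino acid, growth arrest and cholesterol medians, which it could have turned positive, stayed negative at -0.36, -0.36 and -0.18.

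**Figure D3:**
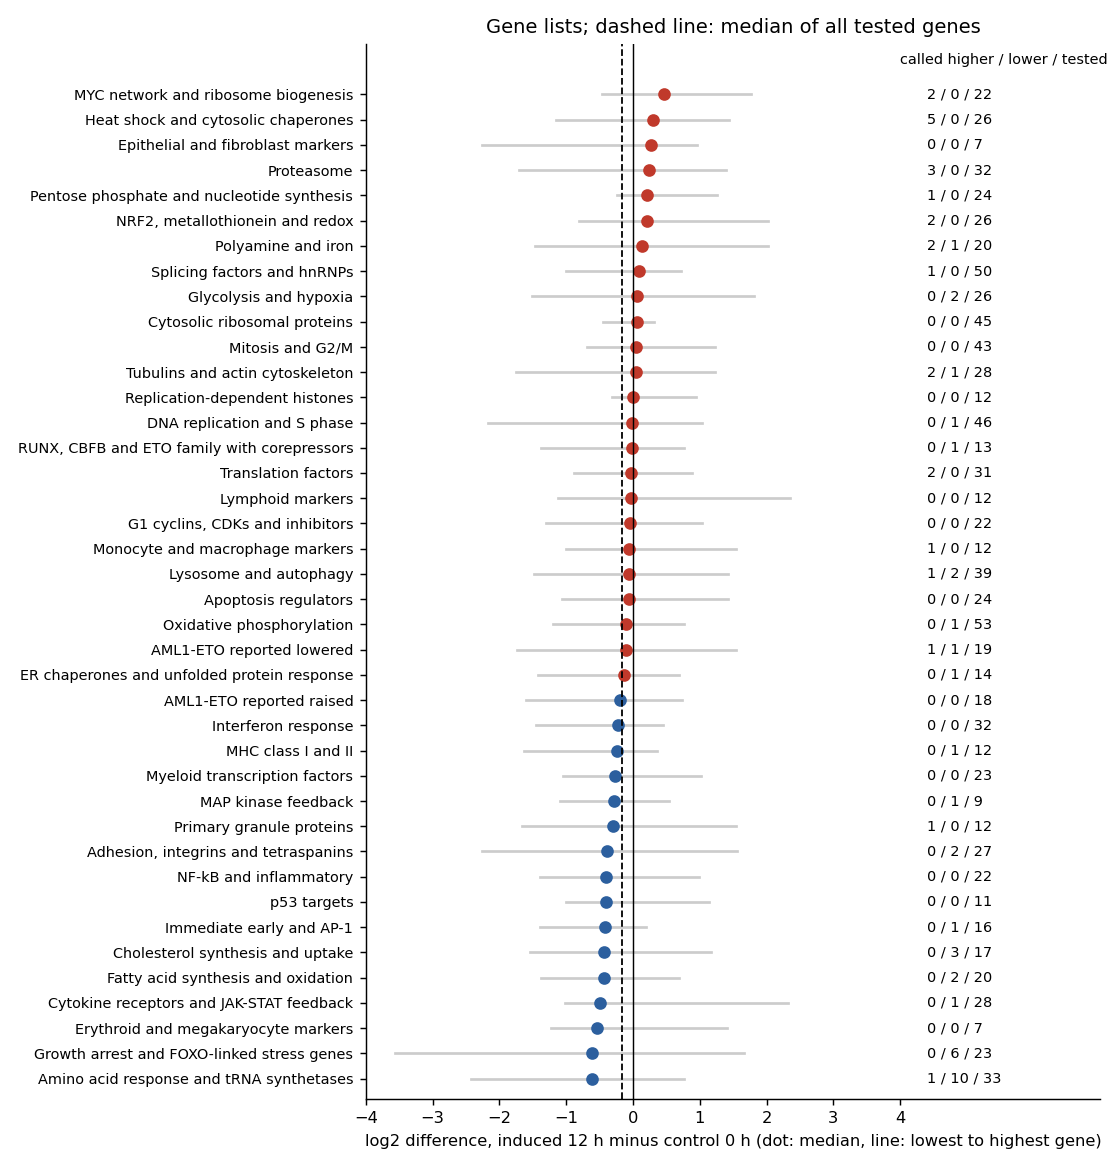
Log2 difference of induced 12 h minus control 0 h for each of 40 gene lists, with the median as a dot (red above and blue below the dashed median of all tested genes) and the lowest to highest gene as a line. Numbers at the right are genes called higher, called lower and tested, and the amino acid list, with 10 falls and 1 rise of 33, has the most calls.

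Control cells of 24 h give the levels of uninduced cells later in culture, at a time that differs from that of the induced 12 h arrays. Control 24 h against control 0 h, which shares the control 0 h arrays, gave 39 calls (0.5% of tested). For the 90 rises its median log2 difference was 0.76 and for the 165 falls -0.74. Induced 12 h against control 24 h, which shares the induced 12 h arrays, gave 2 calls (0.0256%), with medians of 0.31 for the rises and -0.39 for the falls. In 153 of the 255 called probe sets (60.0%) both induced 12 h arrays lay beyond all arrays of control 0 h and control 24 h. Over all tested probe sets they did so in 1243 (15.9%), out of 3562 that did not overlap control 0 h. All 255 calls were already apart from control 0 h and were chosen with the same induced 12 h arrays. Their larger share is therefore partly built in.

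For some genes the control 24 h arrays read as the induced 12 h arrays did. TSC22D3 read 91.7 and 48.5 in control 24 h cells, and DDIT3 -638 and -423, under the floor as in induced 12 h cells. BNIP3L read 968 and 1091 there, and SAT1 2447 and 1851 on its brighter probe set. The log2 differences of induced 12 h minus control 24 h were -0.28 for BNIP3L and 0.05 for SAT1, against -2.14 and -1.31 relative to control 0 h.

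Others differed from both control times. The 2 probe sets called against control 24 h were those of ATF5 and CHRNB1, both lower. ATF5 read 10194 and 12620.1 in control 24 h cells (log2 -1.40 ± 0.19, adjusted p = 0.046), and CHRNB1 2451 and 4681 (log2 -2.31 ± 0.34, adjusted p = 0.0473). Both induced 12 h arrays were below all 4 control arrays for both genes.

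Against the mean of the control 0 h and control 24 h groups, 28 probe sets were called (0.359% of tested), 9 as rises and 19 as falls, and all 28 were also called against control 0 h. Named rises were CCDC86 (log2 2.69 ± 0.29), PEMT (2.71 ± 0.38), TNIP1 (2.43 ± 0.37), TFRC (1.78 ± 0.26) and PSMD11 (0.74 ± 0.12). HRAS, a small GTPase of growth factor signalling, was also among them (at least 1.75 ± 0.31, adjusted p = 0.0302). So was ADRM1, a ubiquitin receptor of the proteasome (1.01 ± 0.16, adjusted p = 0.0188). The difference of HRAS was identical against each control group alone, which places its control values at the floor. For CCDC86, PEMT and TNIP1 the control 0 h arrays lay under the floor, so their differences hold for floored values alone. Falls included CHRNB1 (-2.46 ± 0.29), AVPR1B (-2.11 ± 0.35), CEP57 (-1.98 ± 0.27), ALDH3B1 (-1.94 ± 0.33), DDIT4 (-1.86 ± 0.36) and BNIP3L (-1.21 ± 0.22). From the amino acid and cholesterol lists, ATF5 (-1.61 ± 0.17), MTHFD2 (-0.87 ± 0.14) and SREBF2 (-0.79 ± 0.14) were lower.

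Induced cells of 24, 48 and 72 h and their same-time controls share no array with the 12 h comparison. At 24 h limma called 0 probe sets between induced and control cells, with 397 at an unadjusted p under 0.05. At 48 h 1501 (19.2%) and at 72 h 2345 (30%) were called. Of the 90 rises at 12 h, 46 (51.1%) were positive at 24 h, 19 (21.1%) at 48 h and 32 (35.6%) at 72 h, against 56.2%, 55.5% and 57.7% of all tested probe sets. Of the 165 falls, 73 (44.2%) were negative at 24 h, 56 (33.9%) at 48 h and 79 (47.9%) at 72 h, against 43.6%, 44.4% and 42.0% of all tested.

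At 48 h, 5 of the 90 rises were called higher and 34 were called lower than control. Of the 165 falls, 24 were called lower at 48 h and 51 higher. The median log2 difference at 48 h was -0.46 for the 90 rises and 0.35 for the 165 falls. Ribosome biogenesis genes, with a median of 0.47 at 12 h, had -1.22 at 48 h, and growth arrest genes -0.61 and 0.89. The 12 h medians hold induction and time in culture together, which cannot be told apart. For control 24 h minus control 0 h the median was 0.38 for ribosome biogenesis genes and -0.62 for growth arrest genes, and for induced 12 h minus control 24 h it was 0.06 and -0.18. The amino acid list had -0.23 and -0.37 in these comparisons, which share the control 24 h arrays. It was negative at both times, with -0.61 at 12 h and -0.76 at 48 h.

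**Figure D4:**
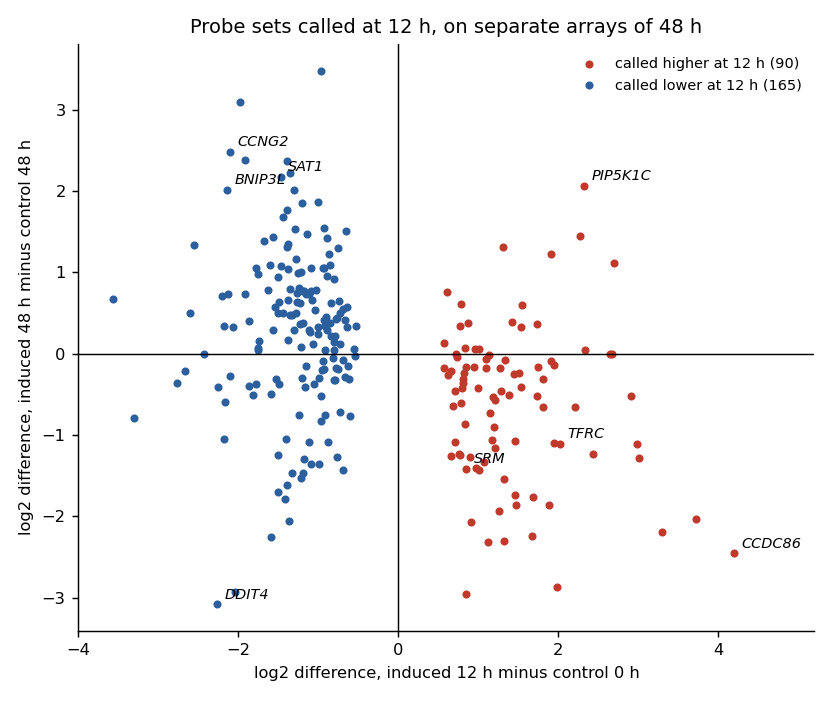
Log2 difference at 48 h, induced minus control (vertical axis), against that of induced 12 h minus control 0 h (horizontal axis), for the 255 probe sets called at 12 h. Most of the 90 rises (red) lie below 0 at 48 h, and most of the 165 falls (blue) lie above it.

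Individual genes changed sign between the times. SRM read 6517 and 6153 in induced 48 h cells, against 17075 and 16671 in control 48 h cells (log2 -1.41, adjusted p = 8.25e-06), opposite in sign to its 12 h rise. On its brighter probe set SAT1 read 12794 and 12798 in induced 48 h cells, against 3812 and 2659 in control 48 h cells (log2 2.01, adjusted p = 1.15e-05), also opposite to its 12 h fall. BNIP3L read 5537 and 5301 in induced 48 h cells, against 1683 and 1068 in control 48 h cells (log2 2.01, adjusted p = 0.000118).

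Other genes were below control at the later times as well. ASNS read 1240.3 and 1779.5 in induced 48 h cells, against 4680.0 and 4405 in control 48 h cells (log2 -1.61, adjusted p = 0.0006), and 962 and 926 in induced 72 h cells, against 5221 and 6289.5 in control 72 h cells (log2 -2.60, adjusted p = 5.91e-06). DDIT4 had log2 differences of -3.08 at 48 h and -4.48 at 72 h (adjusted p = 0.000209 and 4.34e-06), and AARS1 of -1.36 and -2.79 (adjusted p = 0.000118 and 2.11e-07). ATF5, the most significant fall of its list at 12 h, had -1.24 at 24 h (adjusted p = 0.0514), -0.50 at 48 h (adjusted p = 0.088) and -0.77 at 72 h (adjusted p = 0.00807).

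**Figure D5:**
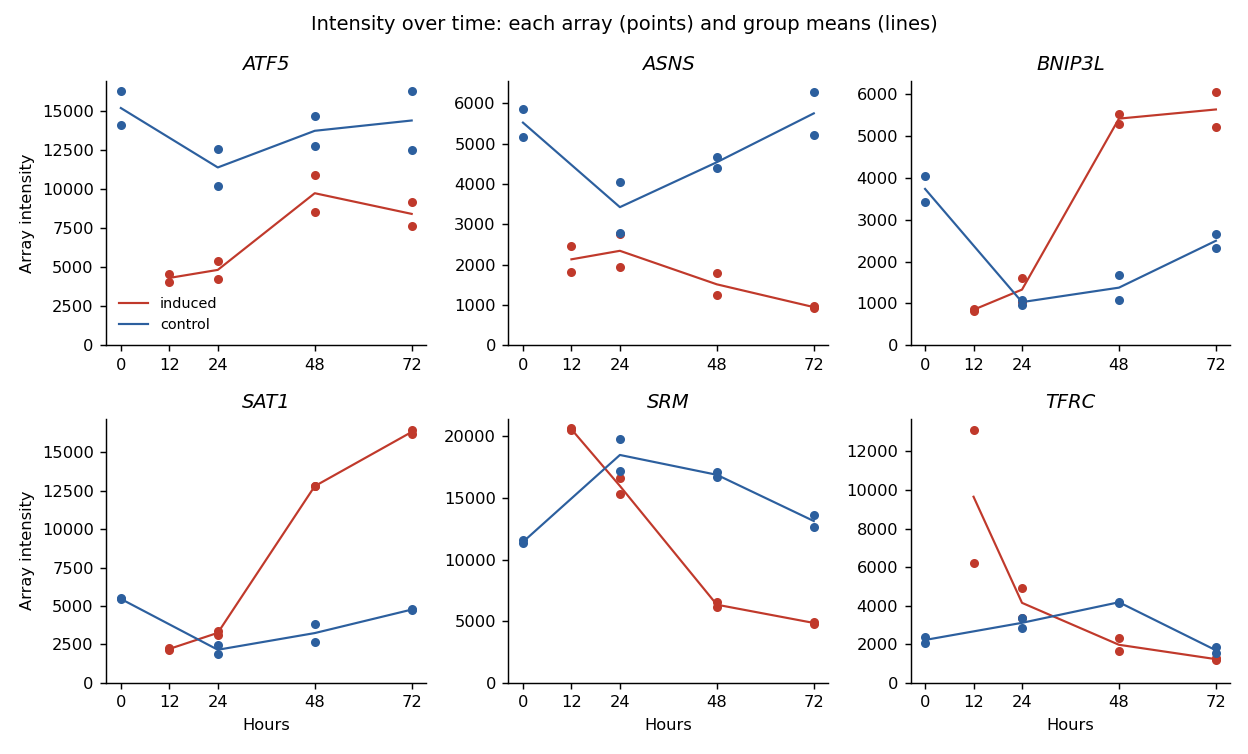
Array intensity (vertical axis) against hours (horizontal axis) for 6 genes in induced (red) and control (blue) cells, with each array as a point and group means joined by lines. ASNS stays below control after 12 h, whereas BNIP3L and SAT1 lie above and SRM below control at 48 and 72 h.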

How the data were processed

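Total RNA of 16 U937 samples was measured on Affymetrix U95Av2 arrays, 2 per group in 8 groups, with groups taken from the labels' class and time. The deposited values are array intensities on a linear scale, 1 per probe set and array. A scale factor is listed for every array per the labels, and the mean intensity is the same on all arrays within 0.1. Which software summarised the probes is not stated in the labels. Of the values outside the manufacturer's 67 control rows, 25.7% were below 0, so a floor at the 40th percentile (136.9) was applied ahead of the log2 step. It lies above part of the values, and a difference between 2 values under it cannot be seen: 9.78% of tested values lay at the floor.

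Testing required an intensity over 294.8, the overall median, on 2 or more arrays, which left 7806 of 12559 probe sets. All 16 arrays entered a linear model of 8 group means (limma 3.58.1, R 4.3.3, with a mean-variance trend in eBayes), leaving 8 residual degrees of freedom, to which the prior added a median of 5.18. Tests were two-sided, adjusted by Benjamini-Hochberg over the tested probe sets in each contrast. The number of arrays, 2 per group, limits the precision. The comparison of induced 12 h with control 0 h was also run on simulated data for these probe sets. It recovered 60.6% of 66 changes of 4-fold, 19.4% of 67 of 2-fold and 1.49% of 67 of 1.5-fold, with 1 false call. The simulation was 1 run with independent normal noise at the fitted spread and no scaling shift between arrays. Its false calls therefore do not measure the error among the 255 calls.

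Symbols came from the platform annotation, which can be old: 10943 probe sets had 1 symbol, 546 several and 1070 none, and no gene was named from the last 2 kinds. Each gene entered lists with its probe set of highest mean. The members and the 40 lists were chosen with earlier results of these data known. Named genes were, in each direction, the 15 with the largest difference among called probe sets without overlap, RUNX1T1 and RUNX1, called list members, and otherwise up to 3 members of a list with the smallest p. HRAS, ADRM1, CEBPA and MYC were named after their values were seen. Alternatives changed the floor, the transform, the filter, the scaling, the spread model, the arrays used and the control group, and a replicate block was tried.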

Additional observations from a re-analysis of the deposited data

Results flagged for a closer look

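In 8 of the 30 named genes the effect at 48 h, induced minus control, was called in the opposite direction to the 12 h difference, and the difference between both effects passed the test in the same limma fit. The genes were chosen for their 12 h values, which the difference contains, and this contrast was added after the data had been seen. The 12 h difference also mixes induction with time in culture, which the 48 h effect does not. Relative to the 12 h difference, the log2 effect at 48 h was lower for CCDC86 (difference -6.65, adjusted p = 6.05e-06). For ARMC6 the difference was -5.76 (adjusted p = 0.000399), for RRP12 -5.50 (adjusted p = 0.000647), for CLTB -4.85 (adjusted p = 0.000237) and for TFRC -3.13 (adjusted p = 0.00039). For the falls AVPR1B, BNIP3L and CCNG2 it was 3.90 (adjusted p = 0.000606), 4.15 (adjusted p = 1.59e-05) and 4.59 (adjusted p = 0.000869). Over all tested probe sets 1456 (18.7%) were called in this contrast. Among the 90 rises 74 moved towards or past 0 in it, and among the 165 falls 118.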

How the results depend on the processing

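The count of 255 called probe sets (90 rises, 165 falls) stayed within 1.5 times with the floor at the 35th or 50th percentile, an asinh transform, and robust eBayes. It was 169 (53 rises) with no filter on dim probe sets, where 12559 were tested, and 157 (53 rises, 104 falls) without the mean-variance trend. A stricter filter tested 4216 probe sets and gave 256 falls. Quantile normalization gave 168 rises and median centring 216 rises and 79 falls. With only the 4 arrays fitted, limma called 0 probe sets, 0 rises and 0 falls, with 1143 at an unadjusted p under 0.05, and 2 residual degrees of freedom remained. Against control 24 h there were 2 calls (0 rises, 2 falls) with 514 at an unadjusted p under 0.05, and against the mean of both controls 28 (9 rises, 19 falls). Leaving out 1 array gave 77 to 150 calls, 36 to 62 rises and 41 to 104 falls. In those fits the lone array is assumed to vary like the other groups. Deviations of same-numbered arrays of induced 12 h and control 0 h correlated at r = 0.034, and 7 of 28 pairs of groups exceeded 0.1. The highest was 0.25, for control 24 h and induced 12 h. Low values cannot exclude that same-numbered arrays belong together, so whether the numbers pair the samples is not known. With the replicate block 288 were called (95 rises, 193 falls), and all 30 named genes were called.

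Of the 88 called probe sets named in the text, 80 were called with quantile normalization, 68 with median centring, 85 with the replicate block and 28 to 45 when 1 array was left out. Directions reversed only with control 24 h in place of control 0 h, for 6 probe sets, with log2 differences of 0.050 and 0.21 for the brighter and the dimmer probe set of SAT1, -0.056 for CLTB, -0.023 for PSMC4, -0.34 for LYZ and -0.28 for CTSA. The adjusted p of these 6 were 0.842 to 1. The cause of these changes was not tested. Signals near or under the floor limit what can be seen: a fall to the floor is only bounded, and no change between dim values is measured.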
